A study of Mus musculus with 12 samples.

Results

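The transcription factors described here are 10 genes grouped as natural killer (NK) cell lineage factors: Tbx21, Eomes, Zeb2, Prdm1, Runx3, Gata3, Id2, Nfil3, Tox and Ikzf2. They were taken by gene symbol from a table of 55487 features, and all 10 were found in it. RNA was sequenced from mouse NK cells, innate lymphocytes that kill infected or transformed cells and secrete interferon gamma. There were 4 samples in each of 3 groups: unstimulated cells and, after 6 hours with an antibody to the activating receptor NK1.1, cells sorted as negative (YFP-) or positive (YFP+) for a yellow fluorescent reporter of the interferon gamma gene, Ifng. Every sample came from the strain B6.129S4-Ifngtm3.1Lky/J with the genotype given as mut/mut, and every label carries "HD IL-15", IL-15 being a cytokine that NK cells need to survive and that primes them. The unstimulated samples therefore share the reporter allele and the IL-15 with the stimulated ones. Their labels give no time in culture and no reporter sort. In comparisons with them, time and sorting cannot be told apart from the antibody. The labels do not state the ages of the mice, or whether samples with the same replicate label (f2, m2, m3 or m4) came from the same mouse. The p-values thus measure the spread between these samples, which may be partly technical.

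An NK cell is specified when a lymphoid progenitor turns on Nfil3 and Id2, the latter blocking the E proteins that would direct it to a B or T cell fate, with Tox acting in the same early steps. The T-box factors Eomes and T-bet (the product of Tbx21) then carry the cell through maturation, and T-bet acts together with the repressors Zeb2 and Prdm1 (Blimp-1) in the last stages. Runx3 supports the response to IL-15, Gata3 is the zinc-finger factor shared with T cells and other innate lymphoid cells, and Ikzf2 (Helios) is an Ikaros family member best known from regulatory T cells.

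Levels are given as CPM (reads of a gene per M reads of its library, where M stands for mega) and differences as log2 fold changes of CPM, with per-sample values always in the order f2, m2, m3, m4. Libraries held 32.1 to 54.2 M reads, so that 3 reads, the limit that a count of 0 allows, stood for 0.0553 to 0.0933 CPM. Such limits cover counting error only. Replicates of one group correlated across genes, which are not independent, at 0.974 to 0.985 without stimulation, at 0.980 to 0.983 after sorting as YFP- and at 0.938 to 0.982 as YFP+. Features of ribosomal RNA type took a median of 13.9% of reads in unstimulated samples, 9.45% in YFP- samples and 7.16% in YFP+ samples (5.13% to 17.8% over all), and the m3 sample was the highest of its group in both sorts (17.8% in YFP- and 15.5% in YFP+). With Lars2, Mir6236 and Gm23935 added, the share was 13.7% to 35.3% over all samples and 27.4% to 35.3% in unstimulated ones. The share was thus highest in the unstimulated group, where Eomes, Prdm1, Runx3, Id2 and Nfil3 were highest. With this wider set left out of the libraries, 8 members were called in YFP+ against unstimulated samples (2 higher and 6 lower). The median change of the 10 members there went from -1.02 to -1.21. That of 31 other regulators of lymphoid and NK cells went from -0.69 to -0.88, so the shift was not particular to the members. In YFP- against unstimulated samples 3 members were higher and 5 lower, and between the sorts 0 were higher and 7 lower in YFP+. The shares of all genes called, given below as deposited, need not hold for this setting. Leaving reads out raises levels most where the share was highest, and the part of the share in the members' changes was not tested. Sample YFP+ m3 also had the lowest weight, 0.267, when samples were weighted by their fit to the groups. In these bulk samples, fewer cells with a transcript and less of it per cell cannot be told apart.

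The members were read against the behaviour of all 12364 genes tested with limma, because much of the transcriptome differed between the groups. Between YFP- and unstimulated samples 51.1% of all genes were called at an adjusted p under 0.05 (30.2% higher and 20.9% lower in YFP-), and 7 of the 10 members were called, 3 higher and 4 lower. Between YFP+ and unstimulated samples 60.8% of genes were called (27.5% higher and 33.3% lower in YFP+), and 8 members were called, 2 higher and 6 lower. Between the sorts 21.8% of genes were called (3.28% higher and 18.5% lower in YFP+), and 6 members were called, 0 higher and 6 lower. The median change over the 10 members was 0.20, -1.02 and -0.69 in these comparisons, beside 0.14, -0.03 and -0.19 over all genes. The split of calls between the sorts depends on how libraries are scaled: 15.1% of all called genes were higher in YFP+ as deposited and 41.1% after trimmed-mean scaling. With each sample centred on its median, 1 member was higher and 5 were lower in YFP+ than in YFP-. The shares of all genes above are as deposited and need not hold under that scaling. With quantile normalization the members' median for YFP- against unstimulated samples was -0.05. The 3 comparisons share groups of samples, so their counts are not independent of each other.

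**Figure D1:**
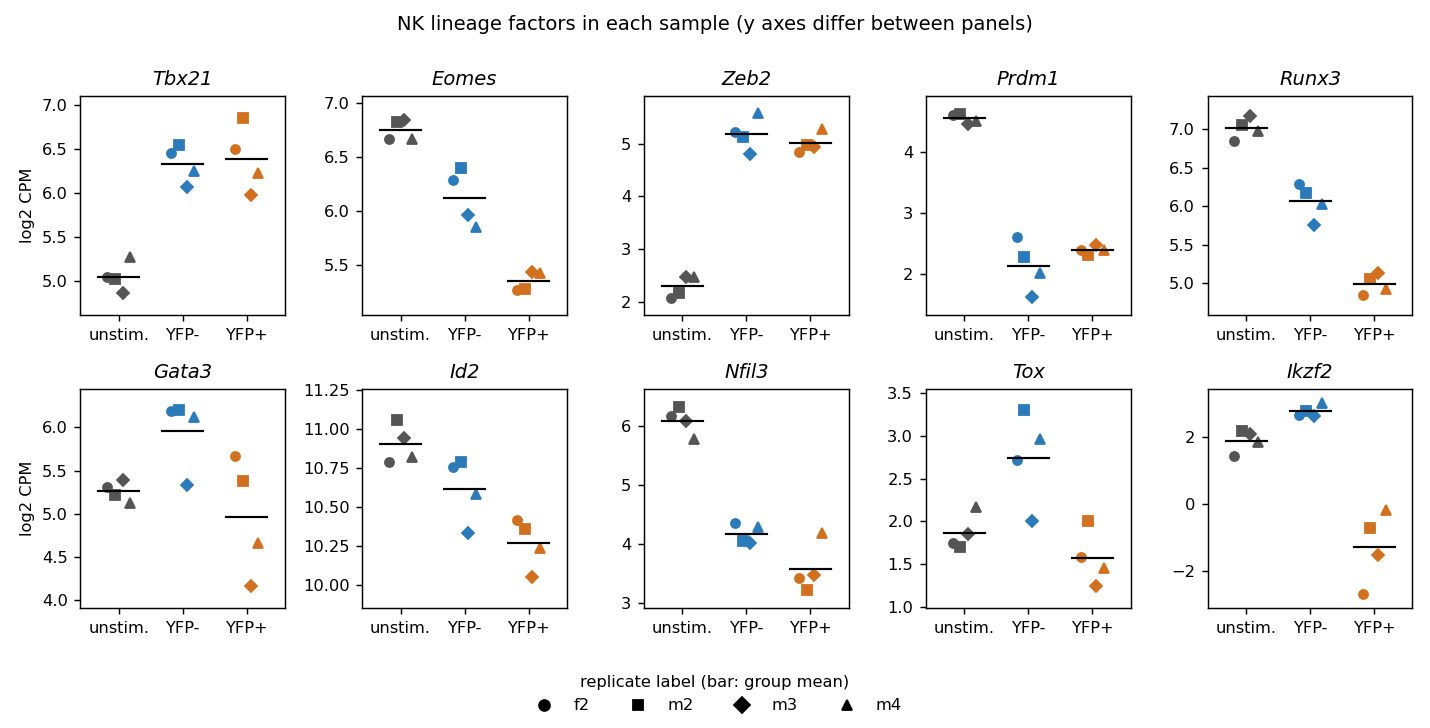
Level of each of the 10 factors in each of the 12 samples (y axis, log2 CPM, with its own range in each panel), by group on the x axis. Symbols mark the replicate label and bars the group mean. Tbx21 and Zeb2 are higher in both stimulated sorts, Prdm1 and Nfil3 are lower in both, Eomes and Runx3 step down without overlap from unstimulated to YFP- to YFP+, and Ikzf2 is lowest in YFP+ samples.

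**Figure D2:**
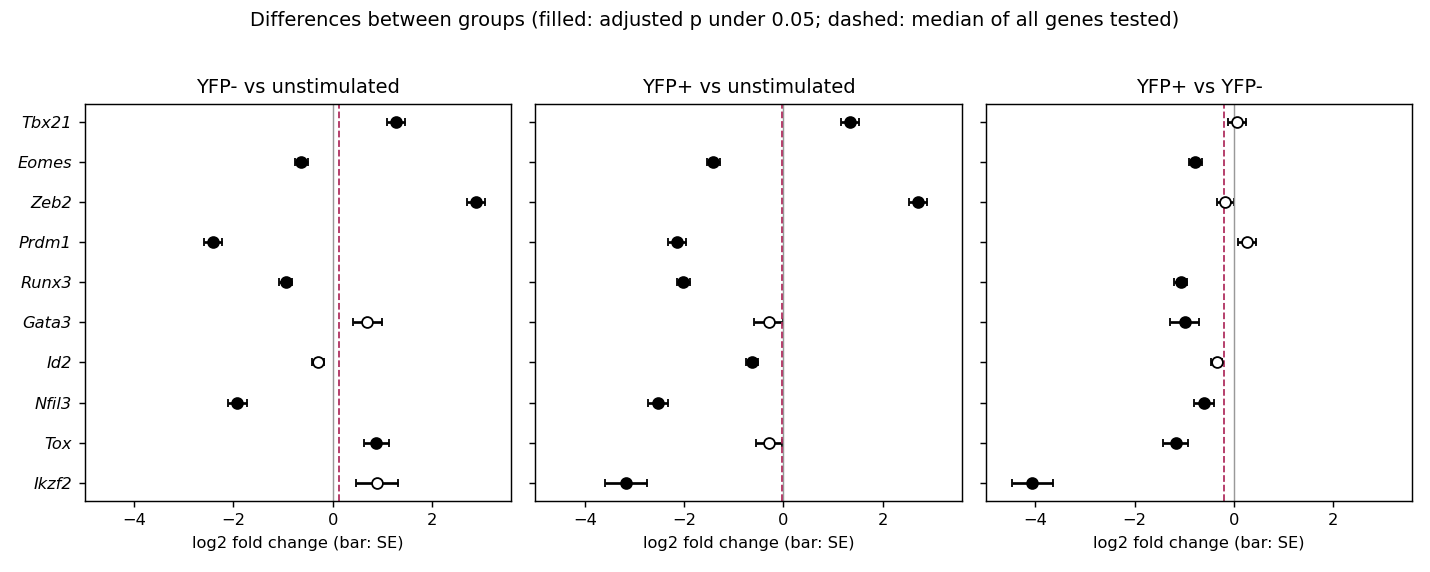
Log2 fold change of each factor (x axis) in the 3 comparisons, with the standard error as the bar and the median of all genes tested as a dashed line. Filled points have an adjusted p under 0.05. No filled point lies above 0 in the comparison of YFP+ with YFP-, where 6 lie below.

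The 250 bases before the RefSeq start (GRCm38.p6) are shown for the T-box pair and for the repressors Zeb2 and Prdm1, the members that moved in opposite directions and whose window holds no annotated exon. Each is printed 5′ to 3′ on the strand of its gene, and capitals mark matches to 8 short motifs. Those motifs, searched on both strands, were the T-box half-site AGGTGT, the ZEB E-box CAGGTG, the NFAT core GGAAAA, the AP-1 site TGANTCA, the RUNX site TGTGGT, the GATA site AGATAA, the EGR site GCGTGGGCG and the STAT site TTCNNNGAA. The window of Zeb2 is the first of its 4 RefSeq starts, and that of Prdm1 (1 RefSeq start) lies inside the longer gene of the GENCODE annotation.
Tbx21, chr11:97115332-97115581, minus strand: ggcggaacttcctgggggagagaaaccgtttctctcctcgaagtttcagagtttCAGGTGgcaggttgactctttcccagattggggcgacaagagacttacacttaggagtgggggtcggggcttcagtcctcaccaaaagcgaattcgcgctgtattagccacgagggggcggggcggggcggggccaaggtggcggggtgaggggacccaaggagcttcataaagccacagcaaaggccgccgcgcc
Eomes, chr9:118477939-118478188, plus strand: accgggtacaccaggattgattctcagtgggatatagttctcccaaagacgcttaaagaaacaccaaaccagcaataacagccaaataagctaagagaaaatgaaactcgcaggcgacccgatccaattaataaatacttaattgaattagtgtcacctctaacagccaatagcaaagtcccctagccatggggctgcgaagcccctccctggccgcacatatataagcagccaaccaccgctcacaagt
Zeb2, chr2:45117443-45117692, minus strand: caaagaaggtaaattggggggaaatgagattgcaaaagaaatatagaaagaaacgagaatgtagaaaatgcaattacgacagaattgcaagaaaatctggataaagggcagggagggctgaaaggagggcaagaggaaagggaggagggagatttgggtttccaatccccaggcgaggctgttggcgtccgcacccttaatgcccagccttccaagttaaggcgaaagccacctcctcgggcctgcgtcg
Prdm1, chr10:44458749-44458998, minus strand: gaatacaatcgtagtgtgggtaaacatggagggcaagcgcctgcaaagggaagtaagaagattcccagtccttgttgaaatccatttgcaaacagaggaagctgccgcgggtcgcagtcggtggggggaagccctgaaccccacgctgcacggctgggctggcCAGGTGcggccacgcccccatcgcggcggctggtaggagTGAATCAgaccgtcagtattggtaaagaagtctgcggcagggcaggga
The Tbx21 window held the letters of the ZEB E-box at position -196 from the start, and the Prdm1 window held them at -87 and an AP-1 match, TGAATCA, at -48. No match to any of the 8 motifs was found in the Eomes window or in this Zeb2 window, which says only that those letters are not in these 250 bases. The other 3 windows of Zeb2, not printed because they overlap annotated exons, held matches: the NFAT core and the STAT site in windows 2 and 3, which overlap each other, and 2 AP-1 matches in window 4. Matches of this kind are common: of all 32851 windows of the same length, 17.2% held the ZEB E-box, 6.75% the AP-1 site, 11.8% the T-box half-site and 14% the RUNX site. The NFAT core was in 20.4% of windows, the GATA site in 9.99%, the STAT site in 7.02% and the EGR site in 0.536%. Windows were given for 8 of the 10 members, all but Tox and Ikzf2.

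The T-box pair parted between unstimulated and stimulated samples: Tbx21 was higher and Eomes lower in both sorts. Tbx21 (ENSMUSG00000001444, chr11:97098071-97115331, minus strand, GRCm38), which encodes T-bet, read 32.8, 32.5, 29.0 and 38.5 CPM in unstimulated samples. It read 87.6, 93.3, 66.8 and 75.8 CPM in YFP- samples and 90.0, 115, 62.8 and 74.4 CPM in YFP+ samples. Both sorts lay wholly above the unstimulated samples and overlapped each other. The rise was 2.43-fold in YFP- (log2 fold change 1.28, SE 0.18, adjusted p = 6.45e-05) and 2.53-fold in YFP+ (1.34, SE 0.18, adjusted p = 2.24e-05). Between the sorts the difference was 0.06 (SE 0.18, adjusted p = 0.847), with a 95% interval of -0.33 to 0.45 that leaves room for a change of either sign.

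Eomes (ENSMUSG00000032446, chr9:118478212-118486132, plus strand), the T-box factor that separates conventional NK cells from type 1 innate lymphoid cells, read 102, 114, 115 and 102 CPM without stimulation. It read 78.1, 84.3, 62.2 and 57.5 CPM in YFP- samples and 38.3, 38.6, 43.0 and 42.8 CPM in YFP+ samples. None of the 3 groups overlapped another. Eomes fell by 0.63 on the log2 scale in YFP- (SE 0.13, adjusted p = 0.00148) and by 1.41 in YFP+ (SE 0.13, adjusted p = 8.48e-07), each against unstimulated samples. YFP+ samples were 1.71-fold below YFP- samples (log2 fold change -0.78, SE 0.13, adjusted p = 0.00103). An antisense gene, Gm33460, shares 118 exon bases with Eomes and read 0.87 to 2.96 CPM over all samples.

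Taken within each sample, where library scaling cancels, the log2 ratio of Tbx21 to Eomes was -1.71 ± 0.25 (SD, n = 4) without stimulation, 0.20 ± 0.13 in the YFP- sort and 1.04 ± 0.46 in the YFP+ sort. The groups did not overlap in any of the 3 comparisons, each of which gave a 2-sided exact permutation p = 0.0286, the smallest that 4 samples against 4 allow (adjusted p = 0.0429 over 18 ratio tests). The ratio was higher by 1.91 in YFP- and by 2.74 in YFP+ than in unstimulated samples, and by 0.84 in YFP+ than in YFP-. Per kilobase of exon, a scale on which genes can be set beside each other, Tbx21 averaged 13.3 and Eomes 26.0 CPM per kb in unstimulated samples. In YFP+ samples the order was turned, at 34.4 for Tbx21 and 9.79 for Eomes.

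Zeb2 and Prdm1, the repressors of late maturation, differed from unstimulated samples in opposite directions, Zeb2 up and Prdm1 down in each sort. No difference between the sorts passed the test for either gene. Zeb2 (ENSMUSG00000026872, chr2:44983632-45117395, minus strand), a zinc-finger repressor that binds E-boxes, read 4.20, 4.50, 5.50 and 5.55 CPM in unstimulated samples. It read 37.4, 34.7, 28.0 and 48.1 CPM in YFP- and 28.9, 31.5, 30.8 and 38.6 CPM in YFP+ samples, so every stimulated sample was above every unstimulated one. The rise was 7.41-fold in YFP- (log2 fold change 2.89, SE 0.17, adjusted p = 4.73e-08) and 6.57-fold in YFP+ (2.72, SE 0.17, adjusted p = 2.67e-08). The sorts differed by -0.17 (95% interval -0.55 to 0.20, adjusted p = 0.511), a difference that turned slightly positive under other scalings (0.09 with centring on the median). Against its relative Zeb1, the log2 ratio of Zeb2 was -1.76 ± 0.30 (SD, n = 4) without stimulation, 1.07 ± 0.17 in the YFP- sort and 1.40 ± 0.37 in the YFP+ sort. The 2 comparisons with unstimulated samples gave an exact permutation p = 0.0286 each (adjusted p = 0.0429), and that between the sorts p = 0.2 (adjusted p = 0.24). Zeb1 itself read 14 to 20.4, 11.3 to 24.9 and 9.06 to 14.6 CPM in the 3 groups and was not called in any comparison.

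Prdm1 (ENSMUSG00000038151, chr10:44437177-44528501, minus strand), which encodes the repressor Blimp-1, read 24.3, 24.5, 22.0 and 22.7 CPM in unstimulated samples. It read 6.09, 4.86, 3.09 and 4.04 CPM in YFP- and 5.27, 4.94, 5.58 and 5.23 CPM in YFP+ samples, far below the unstimulated range and overlapping between the sorts. It fell by 2.41 on the log2 scale in YFP- (SE 0.18, adjusted p = 3.46e-07) and by 2.15 in YFP+ (SE 0.18, adjusted p = 2.98e-07). YFP+ was 0.26 above YFP- (95% interval -0.13 to 0.65, adjusted p = 0.338). That last difference was called when samples were centred on their median (0.52) or quantile normalized (0.59). Over the 12 samples Zeb2 and Prdm1 had a Pearson r of -0.96, the lowest of the 45 pairs of members, which describes 3 groups of 4 libraries and carries no test.

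Runx3 (ENSMUSG00000070691, chr4:135120652-135177990, plus strand), a runt-domain factor needed for NK cell development and the response to IL-15, stepped down across the groups with Eomes. It read 114, 133, 144 and 126 CPM in unstimulated, 78.2, 72.3, 54.0 and 65.1 CPM in YFP- and 28.9, 33.3, 35.0 and 30.4 CPM in YFP+ samples. No group overlapped another. It fell by 0.95 in YFP- (SE 0.13, adjusted p = 6.73e-05) and by 2.02 in YFP+ (SE 0.13, adjusted p = 3.71e-08) against unstimulated samples. YFP+ samples were 2.10-fold below YFP- (log2 fold change -1.07, SE 0.13, adjusted p = 0.000116). Its relative Runx1, which shares the cofactor Cbfb, read 30.8 to 33.9, 27.9 to 39.8 and 29.1 to 35.6 CPM and was not called in any comparison. The log2 ratio of Runx3 to Runx1 was accordingly 2.01 ± 0.15 (SD, n = 4), 0.93 ± 0.13 and -0.06 ± 0.11 in unstimulated, YFP- and YFP+ samples. All 3 differences were without overlap (2-sided exact permutation p = 0.0286 each, adjusted p = 0.0429). Eomes and Runx3 had the highest correlation of the 45 pairs of members over the 12 samples (r = 0.98).

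**Figure D3:**
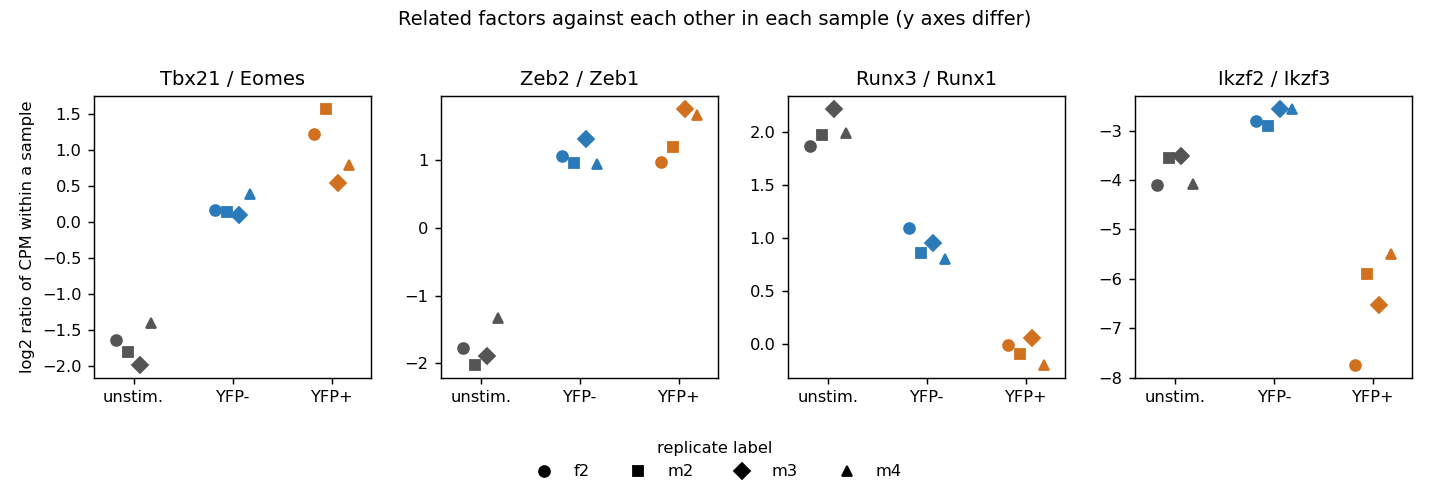
Log2 ratio of CPM of a member to a related gene within each sample (y axis, with its own range in each panel), by group on the x axis. Symbols mark the replicate label. Tbx21 gains on Eomes and Runx3 falls against Runx1 in each group in turn, the 3 groups not overlapping in either panel, and Ikzf2 is lowest against Ikzf3 in YFP+ samples. Ratios of CPM are not corrected for gene length, so their sign does not say which gene of a pair is more abundant.

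Of the early-acting factors, Nfil3 fell in both sorts and Id2 fell in YFP+ samples, each against unstimulated samples. Nfil3 (ENSMUSG00000056749, chr13:52967209-52981073, minus strand), a basic leucine zipper factor required to form NK progenitors, read 72.7, 80.8, 67.9 and 54.9 CPM without stimulation. It read 20.4, 16.5, 16.2 and 19.6 CPM in YFP- and 10.7, 9.25, 11.1 and 18.1 CPM in YFP+ samples. Both sorts lay below every unstimulated sample, and they overlapped each other because YFP+ m4 was as high as the YFP- samples. It fell by 1.92 in YFP- (SE 0.20, adjusted p = 4.78e-06) and by 2.53 in YFP+ (SE 0.20, adjusted p = 1.47e-07). The difference between the sorts, -0.60 (SE 0.20, adjusted p = 0.0426), was near the threshold and was lost in 14 of 20 alternatives. These include the trimmed-mean scaling (-0.41) and leaving out label f2 (-0.50), m2 (-0.53), m3 (-0.62) or YFP+ m3 alone (-0.57).

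Id2 (ENSMUSG00000020644, chr12:25093799-25097140, minus strand), the inhibitor of E proteins, was the most abundant member per kilobase of exon in every group, at 789, 649 and 508 CPM per kb. It read 1773, 2133, 1972 and 1813 CPM in unstimulated, 1730, 1770, 1293 and 1535 CPM in YFP- and 1367, 1315, 1063 and 1210 CPM in YFP+ samples. YFP+ samples were 1.56-fold below unstimulated ones without overlap (log2 fold change -0.64, SE 0.12, adjusted p = 0.000401). YFP- samples differed from unstimulated samples by -0.29 on the log2 scale (SE 0.12, adjusted p = 0.059), and YFP+ differed from YFP- by -0.35 (adjusted p = 0.0532). Neither passed as deposited, and each passed in some alternatives, the former after trimmed-mean scaling (-0.40), the latter without label m3 (-0.37). Its relative Id3 read 1.41 to 4.09 CPM over all samples, and the log2 ratio of Id2 to Id3 did not separate the groups (9.0 ± 0.18, 9.13 ± 0.34 and 9.23 ± 0.23, SD, n = 4; exact permutation p = 0.171 to 0.686). Per kilobase, Nfil3 ranked 2 behind Id2 in unstimulated samples (34.1 CPM per kb) and 6 in both sorts (8.96 and 6.07), while Tbx21 went from rank 5 to rank 2.

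Gata3 and Tox both had their highest group mean in YFP- samples and their lowest in YFP+ samples, and both were called lower in YFP+ than in YFP-. Gata3 (ENSMUSG00000015619, chr2:9857078-9890034, minus strand) read 39.6, 37.3, 41.9 and 34.9 CPM in unstimulated, 73.2, 73.3, 40.2 and 69.6 CPM in YFP- and 51.0, 41.6, 17.8 and 25.2 CPM in YFP+ samples. The m3 sample was lowest in both sorts, and these are also the samples with the highest share of ribosomal RNA type reads in their groups. The part of that share in the result was not tested. Low values in YFP- m3 were not particular to Gata3: it was the lowest YFP- sample for every other member except Eomes. Its trimmed-mean scaling factor was 0.943, against 1.06 to 1.16 in the other YFP- samples. Gata3 was lower in YFP+ than in YFP- by 0.99 on the log2 scale (log2 fold change -0.99, SE 0.29, adjusted p = 0.0251), with groups that overlapped. This call was lost in 7 of 20 alternatives, among them leaving out label m2 (-1.05), label m4 (-0.84) or YFP+ m3 (-0.72). Its difference between YFP- and unstimulated samples, 0.70 (SE 0.29, adjusted p = 0.0573), was not called as deposited but was called without label m3 (0.95) and without YFP+ m3 alone (0.70). That between YFP+ and unstimulated samples was -0.29 (95% interval -0.92 to 0.33, adjusted p = 0.396).

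Tox (ENSMUSG00000041272, chr4:6686353-6991557, minus strand), a high-mobility-group box factor of early NK cell development, was scarce, at 85 to 485 reads per library. It read 3.33, 3.24, 3.59 and 4.47 CPM in unstimulated, 6.57, 9.83, 3.99 and 7.81 CPM in YFP- and 2.98, 4.0, 2.35 and 2.74 CPM in YFP+ samples. In YFP-, m3 was again the lowest sample and fell within the range of the other groups. Tox rose in YFP- by 0.88 over unstimulated samples (SE 0.26, adjusted p = 0.0117), a call lost in 5 of 20 alternatives, among them leaving out label f2 (0.85) or m2 (0.64). It was lower in YFP+ than in YFP- by 1.17 on the log2 scale (log2 fold change -1.17, SE 0.26, adjusted p = 0.0055), a call lost without label m4 (-1.06). YFP+ and unstimulated samples differed by -0.29 (95% interval -0.85 to 0.27, adjusted p = 0.349). Its relative Tox2 had 0 to 11 reads per library, too few for their ratio to be read.

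Ikzf2 (ENSMUSG00000025997, chr1:69531214-69687245, minus strand) had the largest difference between the sorts of all 10 members. It read 2.7, 4.52, 4.22 and 3.58 CPM in unstimulated and 6.37, 6.89, 6.20 and 8.10 CPM in YFP- samples, and 0.14, 0.59, 0.33 and 0.87 CPM in YFP+ samples. These last values stand for 7, 32, 12 and 28 reads, against 269 to 397 reads in each YFP- library. The 3 groups did not overlap. YFP+ samples were 16.7-fold below YFP- (log2 fold change -4.06, SE 0.42, adjusted p = 2.93e-05) and 9.01-fold below unstimulated samples (-3.17, SE 0.42, adjusted p = 1.74e-05). Because so few reads carry the YFP+ level, the size depends on the prior: with a pseudocount of 1 CPM the changes were -2.43 and -1.69, and both were still called. YFP- samples exceeded unstimulated ones by 0.89 (SE 0.42, 95% interval -0.0021 to 1.79, adjusted p = 0.0881), which was not called as deposited and was called in 5 of 20 alternatives. Against Ikzf3 (Aiolos), a family member read at 31.9 to 60.8 CPM over all samples, the log2 ratio was -3.81 ± 0.33 (SD, n = 4) without stimulation, -2.7 ± 0.17 in the YFP- sort and -6.42 ± 0.98 in the YFP+ sort. All 3 differences were without overlap (2-sided exact permutation p = 0.0286 each, adjusted p = 0.0429).

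Per kilobase of exon the order in unstimulated samples was Id2, Nfil3, Eomes, Runx3, Tbx21, Gata3, Prdm1, Tox, Ikzf2 and Zeb2. Eomes (26.0 ± 1.75 CPM per kb, SD, n = 4) and Runx3 (25.8 ± 2.47) did not differ beyond their spread. In YFP+ samples the order was Id2, Tbx21, Eomes, Gata3, Runx3, Nfil3, Zeb2, Prdm1, Tox and Ikzf2. There Eomes (9.79 ± 0.62), Gata3 (8.52 ± 3.8), Runx3 (6.37 ± 0.56) and Nfil3 (6.07 ± 1.95) lay within the spread of their neighbours, and Ikzf2 was last at 0.042 ± 0.027. Exon length counts the bases of every annotated transcript (19942 for Zeb2), which lowers the level per kilobase of a gene with many of them.

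Counted over samples, 8 of the 10 members had groups that did not overlap between YFP- and unstimulated samples, 8 between YFP+ and unstimulated, and 3 (Eomes, Runx3 and Ikzf2) between the sorts. Of all genes tested, 52.7%, 54.7% and 22.1% did not overlap in these comparisons.

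For each member, up to 3 protein-coding genes with the most similar profile were taken from 8075 genes with a mean log2 CPM of at least 2, by Pearson r over the 12 samples. These correlations describe 3 groups of 4 libraries that share their scaling, and the largest of many were picked, so no test goes with them. Tbx21 was closest to Ripk2 (r = 0.99), Cd6 and Pdgfb, and Zeb2 to Utf1 (r = 0.99), Kdm6b and Pinx1. Prdm1 was closest to Tmem37 (r = 0.98), Cenpx and Vars, and Nfil3 to Egln3 (r = 0.98), Fgl2 and Fut8. Eomes was closest to Ctdsp2 (r = 0.98), Hp1bp3 and Cpne3, and Runx3 to Mki67 (r = 0.99), Cit and Hmgb2. Mki67, the proliferation marker Ki-67, had a mean of 6.54, 4.92 and 3.40 log2 CPM in unstimulated, YFP- and YFP+ samples. Ikzf2 was closest to Ltb (r = 0.96), Egr3 and Kdm2b, and Ltb, the gene for lymphotoxin beta, had a mean of 6.37, 6.74 and 3.27 log2 CPM in the same order. Gata3 was closest to Pou2f1 (r = 0.97), Sdf4 and Pdpk1, Id2 to Mmgt2 (r = 0.98), Atp5c1 and Arid5b, and Tox to Med26 (r = 0.95) and Fbxo3.

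Around the members, 31 of 35 other regulators of lymphoid and NK cells could be tested, and the others, Tox2, Bcl11b and Zfp683 among them, were too low. In YFP- against unstimulated samples 7 rose and 9 fell, in YFP+ against unstimulated 4 rose and 20 fell, and in YFP+ against YFP- 1 rose and 15 fell. The shares of all genes that rose and fell were 30.2% and 20.9%, 27.5% and 33.3%, and 3.28% and 18.5% in the same order. The regulators' median change was -0.15, -0.69 and -0.51, beside 0.14, -0.03 and -0.19 for all genes. Stat5a, which carries IL-15 receptor signals, rose by 3.02 in YFP- (SE 0.16) and 3.27 in YFP+ (SE 0.16), from a mean of 9.31 CPM to 75.8 and 89.9 CPM. Irf8, an interferon regulatory factor, rose by 1.37 (SE 0.19) in YFP-, and its mean was 950, 2433 and 2513 CPM in unstimulated, YFP- and YFP+ samples. Foxo3 fell by 1.61 (SE 0.16) in YFP- and by 2.43 (SE 0.16) in YFP+, and Lef1, a partner of beta-catenin, fell by 1.43 (SE 0.18) and 2.48 (SE 0.18). Klf2, a factor that keeps lymphocytes quiescent and circulating, fell by 2.63 (SE 0.19) in YFP+. Its mean was 9.41, 3.96 and 1.52 CPM in unstimulated, YFP- and YFP+ samples, so it was lower in both sorts.

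Between the sorts, the largest changes among these regulators were all lower in YFP+. Rora, a nuclear receptor of innate lymphoid cells, had 14.3 to 28.6 CPM in YFP- and 1.52 to 4.52 CPM in YFP+ samples (log2 fold change -2.98, adjusted p = 5.32e-05). Tcf7, which encodes TCF-1, had 22.2 to 38.8 CPM in YFP- and 3.45 to 4.59 CPM in YFP+ (-2.80, adjusted p = 3.2e-06). Stat4, the IL-12 signal transducer, had 10.9 to 40.2 and 3.07 to 8.73 CPM (-2.03, adjusted p = 0.0016), and Bach2, a repressor of effector genes, 15.7 to 21.6 and 4.21 to 6.12 CPM (-1.85, adjusted p = 1.45e-05). None of these 4 genes, named for the size of their change in this comparison, overlapped between the sorts. Over all genes tested, 22.1% did not overlap. Trimmed-mean scaling gave 3 higher and 14 lower regulators in this comparison, and the shares of all genes as deposited need not hold there.

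**Figure D4:**
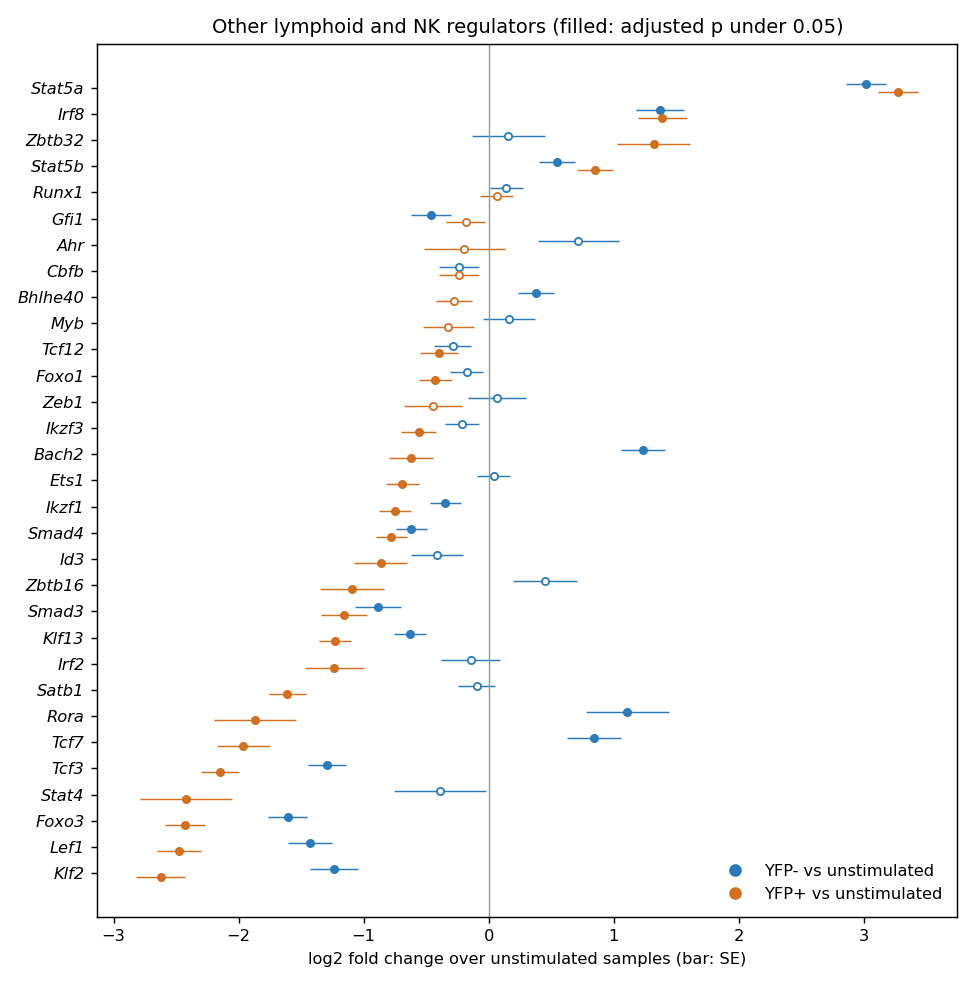
Log2 fold change over unstimulated samples (x axis, with the standard error) of the 31 other regulators that were tested, in YFP- and YFP+ samples. Filled points have an adjusted p under 0.05, and genes are ordered by the change in YFP+. Stat5a is the highest in both sorts, and Klf2 has the lowest value in YFP+.

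Genes downstream of the members, or that mark the stages they govern, did not move as one. Of 12 tested genes reported as T-box targets (Zeb2 among them), 5 rose and 2 fell in YFP- and 5 rose and 5 fell in YFP+ against unstimulated samples, while 4 rose and 5 fell in YFP+ against YFP-. The shares of all genes that rose and fell were 30.2% and 20.9%, 27.5% and 33.3%, and 3.28% and 18.5% in the same order. The chemokine genes Ccl3 (log2 fold change 5.61, SE 0.12) and Ccl4 (4.90, SE 0.15) rose in YFP- samples, and the chemokine receptor gene Cxcr3 fell by 3.24 (SE 0.27). In YFP+ samples Ccl3 and Ccl4 were higher still, at means of 11371 and 28911 CPM against 3770 and 11968 CPM in YFP-. Cxcr3 read 27.2 to 47.1 CPM in unstimulated, 2.30 to 5.17 CPM in YFP- and 0.36 to 0.65 CPM in YFP+ samples. Ifng, the gene the sort was made on, read 3.66 to 4.19, 36.6 to 54.5 and 304 to 343 CPM, and its difference between the sorts follows the selection. The list's median in YFP+ against unstimulated samples was 0.15, beside -0.03 over all genes, and was -0.07 after quantile normalization.

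Of 11 tested genes of terminal maturation, the stage at which T-bet, Zeb2 and Blimp-1 act, 1 rose and 4 fell in YFP-, and 1 rose and 6 fell in YFP+, against unstimulated samples. Between the sorts 1 rose and 3 fell. The shares of all genes that rose and fell were 30.2% and 20.9% in YFP-, 27.5% and 33.3% in YFP+, and 3.28% and 18.5% between the sorts. The gene that rose was Gzmb, the granzyme B gene, by 1.06 (SE 0.11) in YFP- and 1.97 (SE 0.11) in YFP+. S1pr5, a receptor for egress from tissues and a reported T-bet target, had 69 to 142 reads per library without stimulation, 22 to 41 in the YFP- sort and 2 to 20 in the YFP+ sort. Klrg1, an inhibitory receptor of mature NK cells, was lower in YFP+ than in YFP- (log2 fold change -2.07, SE 0.26, adjusted p = 0.000135), as was Cd226 (-3.34, SE 0.40, adjusted p = 7.95e-05). The list's median between the sorts was -0.13, beside -0.19 over all genes, and was 0.14 with centring on the median.

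Of 15 genes associated with early NK cells and type 1 innate lymphoid cells, 8 rose and 1 fell in YFP- and 4 rose and 8 fell in YFP+ against unstimulated samples. Between the sorts 1 rose and 11 fell, with a list median of -1.46, beside -0.19 over all genes. The shares of all genes that rose and fell were 30.2% and 20.9% in YFP-, 27.5% and 33.3% in YFP+, and 3.28% and 18.5% between the sorts. Xcl1, the gene for the chemokine lymphotactin, rose by 5.6 (SE 0.19) in YFP- and 7.08 (SE 0.19) in YFP+. Tnfsf10, the gene for the death ligand TRAIL, rose by 2.01 (SE 0.22) in YFP-, and its mean was 6.36, 25.6 and 12.6 CPM in unstimulated, YFP- and YFP+ samples. Ltb was lower in YFP+ than in YFP- (log2 fold change -3.47, SE 0.23, adjusted p = 1e-06), and so was Cd200r1 (-2.62, SE 0.49, adjusted p = 0.00193). Il7r, the IL-7 receptor gene, had 47 to 76 reads per library in the YFP- sort and 0 to 6 in the YFP+ sort.

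The labelled cell type was met by its markers: all 12 NK cell markers were above 1 CPM in every group mean, with a summed level of 4881 to 5293 CPM in unstimulated, 3988 to 5279 CPM in YFP- and 2599 to 3952 CPM in YFP+ samples. Among the markers with the largest levels, Il2rb had a mean of 1047, 1642 and 1013 CPM, Fcer1g of 1269, 1043 and 941 CPM and Tyrobp of 950, 524 and 476 CPM in the 3 groups. Klrb1c, the gene for NK1.1 itself, had a mean of 308, 75.3 and 6.50 CPM. Klrc1, at 52.4, 251 and 132 CPM, had a higher mean in both sorts than without stimulation but was lower in YFP+ than in YFP-. Against unstimulated samples, 2 of the 12 were called higher and 7 lower in YFP-, and 2 higher and 8 lower in YFP+. Over all genes 30.2% were higher and 20.9% lower in YFP-, and 27.5% and 33.3% in YFP+. Between the sorts 0 of the 12 were called higher and 6 lower in YFP+, beside 3.28% and 18.5% of all genes. The 9 T cell markers summed to 160 to 204, 276 to 345 and 357 to 389 CPM, most of it Trbc2. This sum was higher in both sorts than in unstimulated samples, as were Tbx21 and Zeb2, while single markers went either way. Trac had a mean of 7.43, 34.3 and 48.4 CPM, Cd6 of 0.75, 13.4 and 21.7 CPM and Cd3d of 17.8, 15.7 and 10.4 CPM in the 3 groups, while Cd3e, Cd4 and Cd8a were at or under 0.91 CPM in each group mean. The 7 B cell markers summed to 132 to 189, 174 to 324 and 57.1 to 168 CPM, nearly all Ighm, and were high in YFP- and low in YFP+ as Gata3 and Tox were, while the defining marker Ms4a1 had a mean of 0.0154 CPM in unstimulated samples and less in either sort. The 9 myeloid markers summed to at most 3.31 CPM and the 8 markers of other innate lymphoid cells to at most 1.95 CPM. The part of these marker levels in the members' changes was not tested.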

How the data were processed

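RNA from 12 samples (10 ng each, SMARTer Ultra Low kit, paired ends of 150 bases) was sequenced on an Illumina NovaSeq, per the labels' protocols. The submitters' processing notes name GRCm38, STAR 2.7.9a, Subread and featureCounts 2.0.3; whether counting used strand is not given in the sources used here. The authors deposited one table of log2 CPM; other normalization is not stated. Of its 55774 lines, 287 were repeats, leaving 55487 features. The values equal the log2 of a count plus a prior of 0.5 reads scaled to the library and divided by the library total, so whole reads were recovered for 100% of values within 0.1 read. There were 0 per-sample columns of no sample.

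The 12 samples were fitted together with limma 3.58.1 (R 4.3.3), with 1 coefficient per group and an intensity trend, on the 12364 genes with log2 CPM above 0 in at least 4 samples. All 10 members passed. Adjusted p-values are Benjamini-Hochberg over all genes tested. The planned test for these values was used, although the unit is recorded as other because the file's quoting hides its columns from a simple reader. Related genes were compared by log2 ratio within a sample with 2-sided exact permutation tests over the 70 splits. The fit was tested on simulated data. Gene positions, exon lengths (bases in any exon of a gene) and overlaps come from GENCODE M21, and promoter windows from RefSeq.

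The rule for names was: all members, their listed relatives, up to 4 called genes with the largest change per list and comparison, and up to 3 most similar genes per member; a few items are not reported here. Mki67 and Ltb were given levels after their values were seen. Members and lists were chosen with earlier results of these data known. Alternatives covered the replicate block, filters, pseudocount, scaling, weights, thresholds and leaving out each label; the planned removal of 356 ribosomal RNA type features was extended by Lars2, Mir6236 and Gm23935 after seeing the data. Python 3.11.15, pandas 2.3.3, numpy 2.4.6, scipy 1.17.1 and matplotlib 3.10.9 were used.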

Additional observations from a re-analysis of the deposited data

Results flagged for a closer look

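Gata3 in YFP- samples stood out because 1 sample lay far from the other three. The m3 sample, at 5.33 log2 CPM, was below the others, which lay between 6.12 and 6.20, and its gap to the nearest of them was 0.912 of the group's whole range, above Dixon's 95% critical value for 4 samples. Of 30 sets of 4 samples examined (10 members in 3 groups), this was the only one past the limit, where chance gives about 1.5. The same m3 sample was also the lowest YFP- sample for every other member except Eomes, without passing that limit. Without label m3, the difference of Gata3 between YFP- and unstimulated samples went from 0.70 to 0.95 and was called.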

How the results depend on the processing

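Each of the 30 member differences was recomputed under 20 alternatives, which kept the direction and call in 533 cases; 31 lost the call, 29 gained it and 7 changed sign. For 13 of the 21 called differences no alternative changed the call. Between YFP+ and YFP- samples the number of genes called, 2691, was 1583 without a filter, 1256 when a log2 change of 1 or more was also required, 1466 at an adjusted p under 0.01 and 1526 to 2389 with a label or YFP+ m3 left out (1526 without m2, 1583 without m4); the members called, 6, were 3 with that requirement. It gave 3239 genes and 4 members for YFP- against unstimulated samples and 4547 genes for YFP+ against unstimulated. Sign changes were all in differences that were not called. Between the sorts, Tbx21 ranged from -0.026 to 0.19 with a label left out, and Zeb2 was 0.023 after quantile normalization, 0.017 after trimmed-mean scaling, 0.088 with centring on the median and 0.0021 with voom weights. In YFP+ against unstimulated samples, Gata3 ranged from -0.51 to 0.017 with a label left out, and Tox was 0.038 after quantile normalization. The ratio of Id2 to Id3 with a pseudocount of 1 CPM was -0.035 between the sorts and -0.0060 in YFP+ against unstimulated samples. With labels left out it ranged from -0.17 to 0.27 between the sorts and from -0.030 to 0.26 in YFP- against unstimulated samples. The ratio of Tox to Tox2 in YFP- against unstimulated samples was 0.62 with that pseudocount. The causes were not tested. The share of called genes that were higher was 59.1% in YFP- and 45.2% in YFP+ against unstimulated samples, and 51.6% and 50.0% after trimmed-mean scaling.

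The replicate labels do not say that samples with one label share a mouse, and same-label samples deviated together above a correlation of 0.1 in 3, 1 and 2 of 4 labels (YFP+ against YFP-, YFP- against unstimulated, YFP+ against unstimulated); 3, 1 and 2 of 4 correlated best with their own label. With the replicate label as a block, 3098, 6682 and 7774 genes and 6, 10 and 8 members were called: Gata3, Id2 and Ikzf2 gained the call in YFP- against unstimulated samples, and between the sorts Id2 gained and Nfil3 lost it. Depth limits Ikzf2 in YFP+ samples, at 7 to 32 reads, and Tox2.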
